A study of Mus musculus with 6 samples.

Results

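Semaphorins, plexins, neuropilins, Eph receptors and ephrins form the main families of contact and guidance signals first described in growing axons. They were chosen here by gene symbol, and 52 of the 32801 genes in the deposited table belong to them. Semaphorins are secreted or membrane-bound ligands, plexins are their receptors, and the neuropilins Nrp1 and Nrp2 are co-receptors that also bind growth factors. Ephrins are ligands tethered to the cell surface, and Eph receptors are the tyrosine kinases that bind them on a neighbouring cell. Both systems act on small GTPases and the actin cytoskeleton, and both are used by lymphocytes and thymic stroma to control cell contact and migration. Nrp1 is widely used in mice as a surface marker of regulatory T cells (Treg) that arose in the thymus.

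The values come from RNA sequencing of thymic Treg, isolated at an age of 3 weeks, with 3 libraries from NOD mice, a strain prone to autoimmune diabetes, and 3 from C57BL/6 (B6) mice. Cells of both strains were sorted by the same gate, CD4+CD8-, Thy1.1+ and negative for GFP, and were not otherwise treated. The labels do not state which transgene or allele gives GFP or Thy1.1, whether animals were pooled, or whether replicates came from separate animals, so p-values measure the spread between these libraries, which may be technical. The question the design allows is how the strains differ. Each value, a normalized count, was taken to be a gene's reads after division by the library's size factor, rounded to a whole number.

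The libraries held between 15500000 and 21600000 reads in genes, as estimated from the rounding, and correlated at 0.973 to 0.987 within a strain on the log2 scale and at 0.933 to 0.944 between strains. Foxp3, the transcription factor that defines Treg, stood at 2310, 1701 and 2044 normalized counts in NOD libraries 2, 10 and 18 and at 2446, 1954 and 1784 in B6 libraries 4, 12 and 20. Il2ra and Cd4 were also present in every library, and of 9 Treg and T cell markers tested, 1 was called, Cd3e, higher in NOD. Among other cell types, the 12 dendritic cell markers summed to 1329 to 1555 in NOD and 2293 to 2314 in B6, and 3 of the 6 that could be tested, Cd74, H2-Aa and Zbtb46, were lower in NOD. Of that list, Clec9a lay at 0 in every NOD library and at 0 or 1 in B6. Over the 6 libraries Xcr1 lay between 56 and 99, Itgax between 2 and 16 and Flt3 between 4 and 9. The 12 monocyte and macrophage markers summed to 99 to 144 in NOD and 181 to 236 in B6, with Ly6c2 lower in NOD among 5 tested. Plasmacytoid dendritic cell markers overlapped between strains (summed values of 1859 to 2240 and 2015 to 2388), and their defining gene Siglech lay between 1 and 8. Of 9 markers of CD4+CD8+ thymocytes, summing to 2293 to 2772 in NOD and 2080 to 2386 in B6, Cd8a was higher and Rag1 lower in NOD. That sum was mostly Cd1d1 and Themis, which overlapped between strains. Dntt (8 to 17 in NOD, 25 to 34 in B6) and Arpp21 (5 to 20 and 24 to 33) also lay lower in every NOD library and were not called. Markers of B cells (5147 to 5622 in NOD, 3622 to 4111 in B6) were mostly Ighm, which was higher in NOD. Of the others, Ms4a1 (3, 0 and 4 in NOD, 6, 10 and 10 in B6), Blnk (2 to 6 and 8 to 13) and Ebf1 (14 to 17 and 29 to 52) lay lower in every NOD library, Cd79a lay higher (56 to 86 and 32 to 55) and Cd79b overlapped. Ebf1 and the 2 Cd79 genes were tested and not called. Thymic epithelial markers summed to 178 to 254 in NOD and 252 to 342 in B6, with Krt14 and Cldn3 at 0 in all libraries. That sum was mostly Epcam (149 to 218 in NOD, 195 to 285 in B6), which overlapped and was not called. Aire was called lower in NOD (2 to 5, against 12 to 23 in B6) and was tested only because of its B6 values. Psmb11, too low to be tested, also lay lower in every NOD library, and Krt5, Krt8, Foxn1 and Cldn4 overlapped. The lists for endothelium (2395 to 2709 and 1849 to 2208, mostly Pecam1), fibroblasts (61 to 168 and 62 to 94), neutrophils (15 to 33 and 40 to 74) and erythroid cells (36 to 45 and 21 to 43) held no gene called with limma among 1 tested each (Pecam1 had an unadjusted p below 0.05). The endothelial receptor gene Kdr was at 0 throughout. The fibroblast sum was mostly Col1a2, which overlapped between strains. Col3a1 (37, 0 and 0 in NOD, 0, 1 and 0 in B6) and Dcn (10, 0 and 0 in NOD, 0 in every B6 library) were nearly confined to NOD library 2. What part other cells had in the strain differences below was not tested.

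Of the 52 genes, 26 were expressed, meaning that at least 3 of the 6 libraries reached 10 normalized counts. All 6 class 4 semaphorins were expressed, as were Sema6c, Sema6d and Sema7a, while 0 of 7 secreted class 3 and 0 of 2 class 5 semaphorins reached that level. Among receptors, 7 of 9 plexins and both neuropilins were expressed. Of 13 Eph receptors 4 were expressed (Epha1, Epha2, Ephb2 and Ephb6), of 5 ephrin-A genes only Efna4, and of 3 ephrin-B genes all 3. Ephb2 reached 10 normalized counts in NOD libraries only. The 26 other members stayed at 15 normalized counts or fewer in any library, and Efna3, Epha8 and Ephb1 lay at 0 in all 6, which allows up to 2.41 to 3.41 normalized counts per library from counting error alone. At the border, Epha2 (0 to 16), Efnb3 (3 to 17) and Efna4 (6 to 19) were just inside and Sema3b (1 to 15), Sema3d (2 to 11) and Epha3 (1 to 10) just outside. Sema3d, a secreted ligand, lay at 3, 2 and 2 in NOD and at 11, 7 and 8 in B6. Those groups do not overlap, but its level was under the filter and gave no call when all genes were tested.

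Per kilobase of annotated exon, which allows genes to be set against each other, a few members stood far above the rest. Averaged over the 6 libraries, Sema4b reached 387 normalized counts per kb, Nrp1 332, Sema4d 279, Plxnd1 142, Plxnc1 104 and Ephb6 102. Sema4d, also known as CD100, is a ligand made by T cells, and its plexin receptor Plxnb1 stood at 18.5 per kb. Sema7a, a ligand anchored in the membrane by a lipid, stood at 66.8, below its plexin receptor Plxnc1. The next members were Sema4c (52.8), Plxna1 (35.7), Nrp2 (27.0), Sema4f (24.6) and Plxna3 (21.3). The other expressed Eph receptors and all the expressed ephrins were under 10 per kb, from 2.1 for Epha2 to 9.22 for Efnb1. The exon lengths come from GENCODE M21 and may differ from those of the annotation the authors used, so the order of close neighbours is uncertain.

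**Figure D1:**
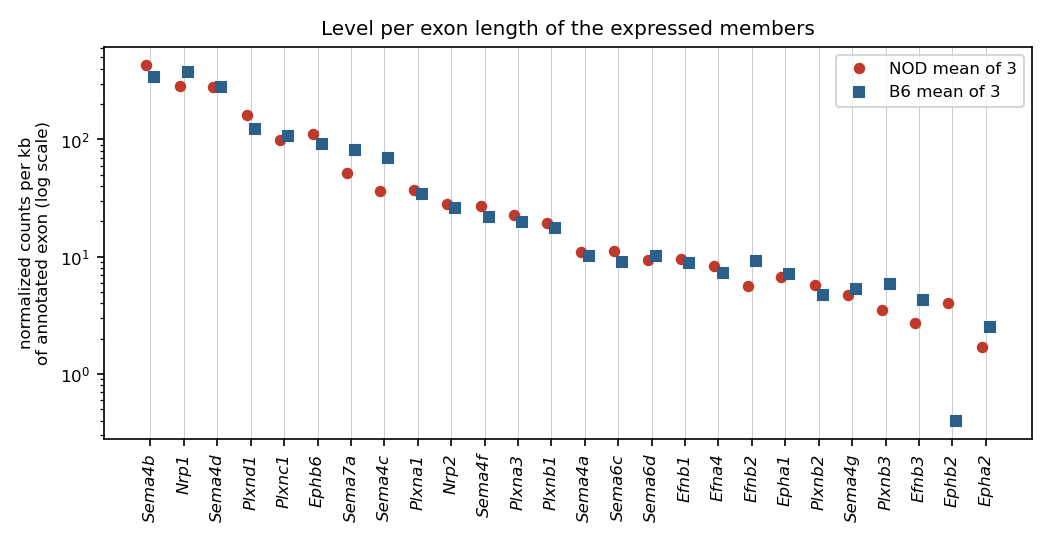
Level of the 26 expressed members, in normalized counts per kilobase of annotated exon on a log axis, as the mean of 3 NOD libraries (circles) and 3 B6 libraries (squares). Sema4b, Nrp1 and Sema4d lead in both strains, and Ephb2 has the widest gap between strains, at 4.02 per kb in NOD and 0.397 in B6.

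Strain differences in these families were few. With limma and an adjusted p below 0.05, 2 of the 26 expressed members were called, 1 higher (Ephb2) and 1 lower (Sema4c) in NOD. That is 7.69% of them, while 9.89% of the 16442 genes tested were called (4.59% higher and 5.3% lower). Ephb2 entered the test only through NOD, the strain in which it was higher, so its call is not independent of the filter. The median log2 fold change, NOD over B6, was 0.05 for the members and 0.01 for all genes. All 3 NOD libraries lay to one side of all 3 B6 libraries for 6 members, 3 higher and 3 lower, or 6 of 26, against 24.1% of all genes tested. An unadjusted p below 0.05 was found for 5 members (19.2%), against 20.3% of all genes. These shares are near the background, and a median 95% interval of 0.55 to either side on the log2 scale leaves moderate differences undetected. As in any bulk sample, fewer cells that express a gene and less of its RNA per cell cannot be told apart.

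**Figure D2:**
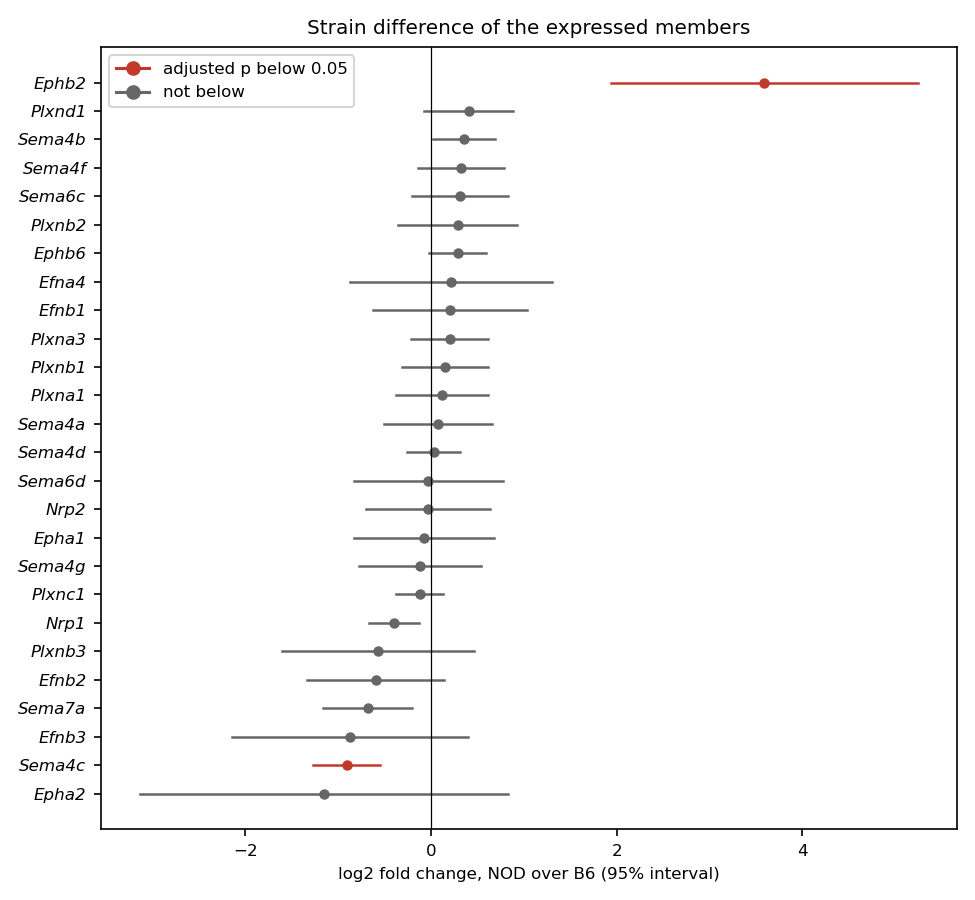
Log2 fold change of each expressed member, NOD over B6, with its 95% interval from limma (3 libraries per strain). Ephb2 (3.59) and Sema4c (-0.91) are the 2 members with an adjusted p below 0.05, and the intervals of Sema4b, Nrp1 and Sema7a also lie clear of 0 before adjustment.

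Ephb2, a receptor for B-class ephrins that takes part in T cell and thymic epithelial contacts in mice, was the member with the largest strain difference. It lies on chromosome 4 (136647539 to 136835988, mm10, minus strand). It stood at 32, 56 and 64 normalized counts in NOD libraries 2, 10 and 18 and at 9, 0 and 6 in B6 libraries 4, 12 and 20. Every NOD library was thus well above every B6 library, although the gene was at a low level in both strains. No B6 library reached the filter of 10, so the gene was tested only because of its NOD values. The log2 fold change was 3.59 ± 0.75 (SE, limma adjusted p = 0.0098), with a 95% interval of 1.93 to 5.25. Because the B6 values are so low, the size depends on the pseudocount and on B6 library 12, and it was 2.55 with 5 in place of 1 and 2.57 without that library. From estimated reads, 167 in NOD against 15 in B6, the ratio was 10.3, with an exact 95% interval of 6.09 to 18.9 that covers counting error only. Omitting NOD library 18 ended the call (adjusted p = 0.059), as did a fit without the trend in the variance (0.07). In the authors' deposited table the log2 fold change was 3.34, with a DESeq2 adjusted p of 3.2e-07. The deposited mean for Ephb2, 41.35, differs from the 27.83 of these 6 libraries. Those statistics may rest on further libraries and are no separate replication.

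The other expressed Eph receptors gave no call. Ephb6, a B-class receptor whose kinase domain is inactive and which is abundant in mouse T cells, stood at 394, 477 and 398 normalized counts in NOD and at 339, 371 and 326 in B6. Its groups did not overlap, but the gap was small (0.29 ± 0.14, limma adjusted p = 0.28). Epha1 stood at 22 to 35 normalized counts in NOD and 23 to 35 in B6, and 6.01% of its exon bases overlap the more abundant gene Zyx on the opposite strand. Epha2 lay between 0 and 16.

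The 250 bases before the annotated start are shown for both expressed B-class receptors, since Ephb2 was near absent in B6 while Ephb6 was abundant in both strains. They are RefSeq sequences of GRCm38.p6, the assembly of mm10, and so are those of the B6 strain, and NOD bases were not analysed here. Ephb2 is read from the minus strand (chr4:136836013-136836262) and Ephb6 from the plus strand (chr6:41605261-41605510), each from 5′ to 3′. Capitals mark matches on either strand to any of 6 short motifs. The GC box, which Sp and KLF factors bind, was searched as GGGCGG. The TATA box, a core promoter element, was searched as TATAAA. Factors of the RUNX family, among them Runx1 of T cells, are known to bind TGTGGT. Forkhead proteins, the family of Foxp3, are known to bind TGTTTAC. Basic helix-loop-helix and zinc finger repressor proteins bind the E-box searched here, CAGGTG. For ETS proteins such as Ets1 the letters searched were CCGGAAG.
Ephb2: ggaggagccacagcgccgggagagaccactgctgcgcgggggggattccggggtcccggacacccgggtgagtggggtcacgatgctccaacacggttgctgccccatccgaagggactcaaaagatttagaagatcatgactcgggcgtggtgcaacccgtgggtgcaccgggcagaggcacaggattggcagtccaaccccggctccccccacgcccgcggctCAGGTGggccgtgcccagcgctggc
Ephb6: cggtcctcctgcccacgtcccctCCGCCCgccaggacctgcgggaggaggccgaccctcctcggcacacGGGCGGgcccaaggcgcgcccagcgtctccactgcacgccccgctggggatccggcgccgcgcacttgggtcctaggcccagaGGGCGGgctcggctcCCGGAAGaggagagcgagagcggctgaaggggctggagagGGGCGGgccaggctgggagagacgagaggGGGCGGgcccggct
The Ephb6 window held 5 GC boxes and 1 ETS match, with no overlap between matches, and the Ephb2 window held 1 E-box, 25 bases before the start, and no GC box. A GC box was found in 55.2% of the windows of tested genes, an E-box in 16.1% and the ETS motif in 13.3%. Over the 34 windows annotated for 24 expressed members, 24 held a GC box (70.6%), 7 an E-box, 5 the RUNX motif (14.7%, against 11.3% in tested genes), 2 the ETS motif, 1 a TATA box (2.94%, against 6.71%) and 0 the forkhead motif (against 2.26%). A match describes letters in a window and is not evidence that a factor binds there.

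With limma, 0 of the 4 expressed ephrins, the ligands of these receptors, were called, and 0 had an unadjusted p below 0.05. The shares over all genes tested were 9.89% and 20.3%, so 0 among 4 genes says little about ephrins as a family. Efnb2 stood at 41, 36 and 39 normalized counts in NOD and at 79, 74 and 35 in B6, where library 20 lay with the NOD libraries and the other two well above (log2 fold change -0.60 ± 0.34, limma adjusted p = 0.38). Without B6 library 20 the value was -0.97 (adjusted p = 0.049). Efnb1 stood at 33, 37 and 29 in NOD and 18, 47 and 27 in B6, with overlapping groups. Efna4, the expressed A-class ligand, lay at 12, 9 and 19 in NOD and 14, 6 and 15 in B6, and Efnb3 between 3 and 17.

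**Figure D3:**
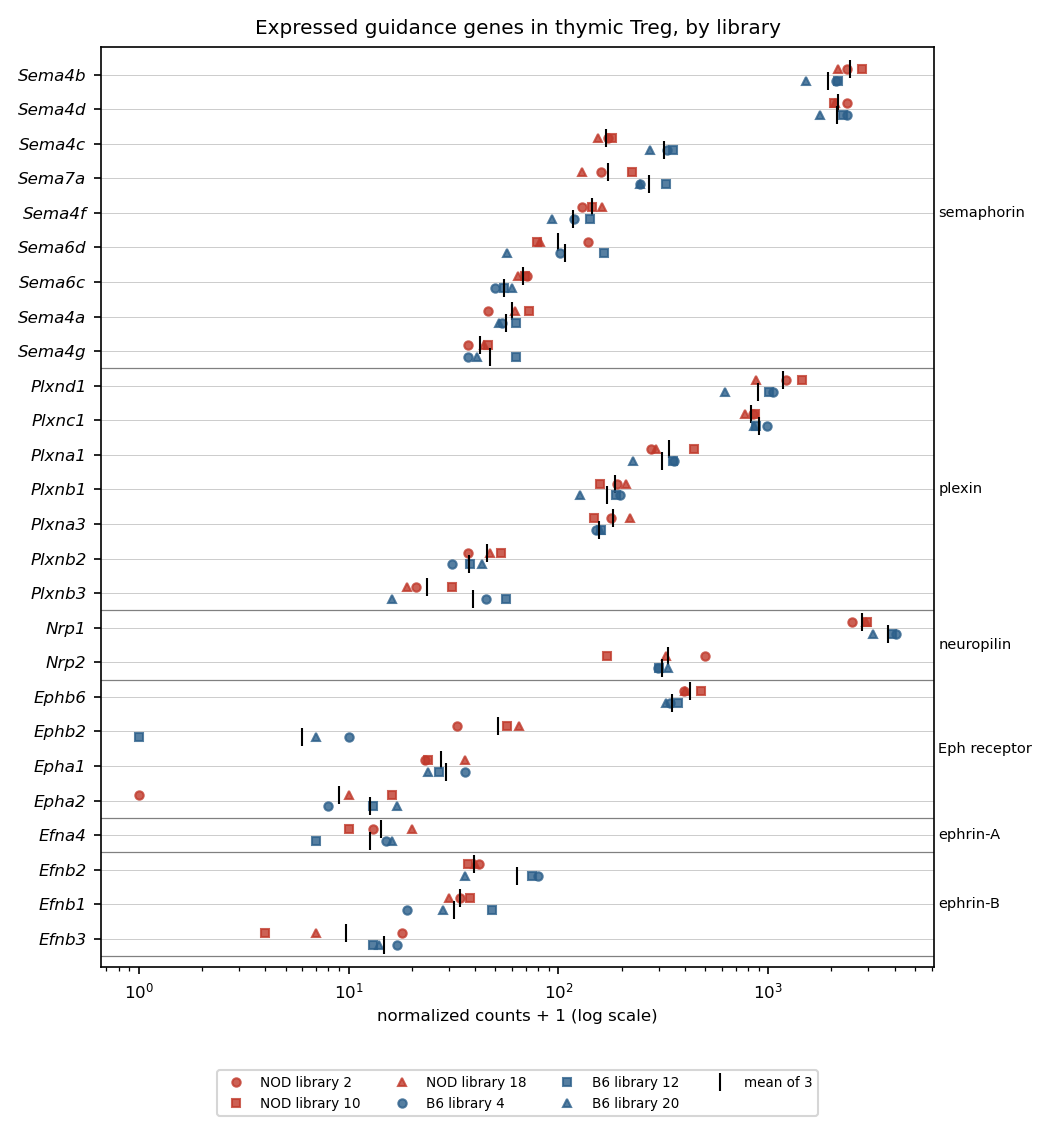
Normalized counts plus 1 (log axis) of the 26 expressed members in each of the 3 NOD (red) and 3 B6 (blue) libraries, ordered within family by mean, with a bar at each strain's mean. Shapes tell libraries of a strain apart and pair nothing between strains. The strains separate without overlap for Ephb2, Ephb6 and Sema6c (NOD higher) and for Sema4c, Sema7a and Nrp1 (NOD lower).

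Among semaphorins, Sema4c fell in NOD. Sema4c is a membrane-bound class 4 ligand of plexin B2, whose own gene Plxnb2 stood at only 36, 52 and 46 normalized counts in NOD and 30, 37 and 42 in B6. Sema4c lies on chromosome 1 (36548639 to 36558349, mm10, minus strand) and stood at 171, 179 and 153 in NOD and at 329, 352 and 271 in B6. The lowest B6 library was far above the highest NOD library. The log2 fold change was -0.91 ± 0.16 (SE, limma adjusted p = 0.0039), a 1.88-fold lower level. The call held in all 12 other fits, including those without each library, at values from -1.02 to -0.83 and adjusted p from 0.0037 to 0.028. In the authors' deposited table, with the limits given for Ephb2, it was -0.93, with a DESeq2 adjusted p of 0.014. An opposite-strand transcript, D430040D24Rik, overlaps 7.27% of its exon bases and averaged 6.8 normalized counts itself.

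Sema7a, whose protein binds plexin C1 and integrin alpha 1 beta 1, stood at 159, 224 and 129 normalized counts in NOD and at 244, 323 and 243 in B6. The groups did not overlap, but the highest NOD library came close to the lowest B6 library, and the difference missed the threshold (log2 fold change -0.68 ± 0.22, limma adjusted p = 0.082). It passed without NOD library 10 (-0.90, adjusted p = 0.013). Its receptor gene Plxnc1 stood at 848, 859 and 772 in NOD and 980, 871 and 855 in B6, with overlapping groups (-0.13 ± 0.11, adjusted p = 0.64). The dendritic and monocyte marker sums given above were also lower in NOD, as Sema4c and Sema7a were. Most of the dendritic sum was Zbtb46 and Cd74. These, H2-Aa and H2-Ab1 lay lower in every NOD library, and the other dendritic markers overlapped between strains. Among monocyte markers Ly6c2, Adgre1 and C1qa lay lower in every NOD library, and the others overlapped. The part of such cells in the Sema4c and Sema7a values was not tested.

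The sequences before the starts of Sema4c and Sema7a are shown because these are the expressed semaphorin genes that lay lower in every NOD library. Sema4c is read from the minus strand (chr1:36558382-36558631, the outer of its RefSeq starts) and Sema7a from the plus strand (chr9:57939862-57940111), with capitals as above.
Sema4c: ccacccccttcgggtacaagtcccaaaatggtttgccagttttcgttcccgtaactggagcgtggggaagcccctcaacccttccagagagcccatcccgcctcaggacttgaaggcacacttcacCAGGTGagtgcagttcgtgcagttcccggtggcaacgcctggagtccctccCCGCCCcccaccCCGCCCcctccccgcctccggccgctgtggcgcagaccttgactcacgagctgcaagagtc
Sema7a: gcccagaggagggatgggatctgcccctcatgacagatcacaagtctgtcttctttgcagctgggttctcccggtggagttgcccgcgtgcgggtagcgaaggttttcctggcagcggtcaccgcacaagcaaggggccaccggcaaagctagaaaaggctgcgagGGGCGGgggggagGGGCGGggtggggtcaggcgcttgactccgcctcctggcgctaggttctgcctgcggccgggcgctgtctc
Each window shown held 2 GC boxes, and the Sema4c window also an E-box 124 bases before the start. Their GC content, 64.4% and 66.4%, and those of Ephb2 (68.4%) and Ephb6 (76.8%) were above the median of 52.4% over all annotated windows. That median includes windows of genes that were not tested, and a GC box was found in 32.7% of all windows against 55.2% for tested genes. The median GC content of tested genes was not computed, so high GC content is not shown to be particular to these 4 genes. The window of another Sema4c start (chr1:36557558-36557807, 69.6% GC), not shown, held 2 GC boxes and no E-box.

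The most abundant semaphorins gave no call. Sema4b, a class 4 ligand, stood at 2369, 2810 and 2156 normalized counts in NOD and at 2103, 2159 and 1509 in B6, so that NOD library 18 fell just short of B6 library 12 (0.36 ± 0.15, limma adjusted p = 0.22). Sema4d stood at 2359, 2051 and 2068 in NOD and 2372, 2262 and 1759 in B6, a log2 difference of 0.03 with a 95% interval of -0.26 to 0.31. Sema4a, a ligand of Nrp1 on mouse Treg, was low, at 45, 71 and 61 in NOD and 53, 62 and 51 in B6. Sema6c, a class 6 ligand, lay at 70, 68 and 63 in NOD and 49, 54 and 59 in B6, groups that did not overlap at a difference that missed the threshold (0.31 ± 0.24, adjusted p = 0.55). Sema4f, Sema4g and Sema6d had overlapping groups and adjusted p of 0.47, 0.89 and 0.98.

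Nrp1, on chromosome 8 (128358604 to 128503363, mm10), stood at 2515, 2954 and 2916 normalized counts in NOD and at 4075, 3880 and 3146 in B6. Every NOD library was below every B6 library, with a narrow gap to B6 library 20. The log2 fold change was -0.40 ± 0.12 (SE, 95% interval -0.67 to -0.13), a 1.32-fold lower level whose limma adjusted p of 0.069 missed the threshold. Without B6 library 20 it passed (-0.51, adjusted p = 0.022), and over the 12 other fits the value ran from -0.51 to -0.33 with adjusted p of 0.022 to 0.27. The authors' deposited table, with the limits given for Ephb2, gave -0.41 with a DESeq2 adjusted p of 0.19. Nrp2 stood at 501, 169 and 323 in NOD and at 296, 301 and 331 in B6, so that the NOD libraries spread on both sides of the tight B6 group. Plasmacytoid dendritic cells also express Nrp1 in mice, and their marker list gave 0 calls among 6 tested with limma (2 at an unadjusted p below 0.05). Those 2, Spib (11, 12 and 14 in NOD, 27, 19 and 23 in B6) and Pacsin1 (202, 172 and 176 in NOD, 259, 259 and 207 in B6), lay lower in every NOD library, as Nrp1 did. Bst2, Tcf4, Ccr9 and Runx2, the others tested, overlapped between strains. Their log2 fold changes were 0.03, -0.26, 0.45 and -0.16. What part such cells had in the Nrp1 value was not tested.

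With limma, 0 of 7 expressed plexins were called, and 0 had an unadjusted p below 0.05. Over all genes tested these shares were 9.89% and 20.3%, so 0 among 7 genes says little about the family. Plxnd1, a receptor of class 3 semaphorins with a role in thymocyte migration in mice, stood at 1211, 1444 and 873 normalized counts in NOD and 1052, 1005 and 622 in B6 (0.41 ± 0.22, limma adjusted p = 0.35). Plxna1 stood at 274, 443 and 292 in NOD and 353, 352 and 225 in B6, and 10.7% of its exon bases overlap the opposite-strand transcript Gm26811. Plxnb3 stood at 20, 30 and 18 in NOD and 44, 55 and 15 in B6, with B6 library 20 again at the NOD level. Plxna3 and Plxnb1 overlapped between strains, at 147 to 218 and 125 to 208 normalized counts over all libraries.

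B6 library 20 was the lowest of the B6 libraries for 16 of the 26 expressed members (61.5%), against 35.1% of all genes tested. It was the highest for 5 (19.2%, against 38.9% of all genes tested). The omission of that library is what moves Nrp1 and Efnb2 across the threshold, and 3 members were then lower. NOD library 10 was the highest NOD library for 14 members (53.8%, against 39% of all genes).

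Genes that act around these receptors were followed through 5 lists chosen by function, in which 14 of 87 tested genes were called, 8 higher and 6 lower in NOD (5 higher without NOD library 18). That is 16.1%, against 9.89% of all genes tested, in lists chosen with earlier results known. Among 8 tested further receptors and partners of semaphorins 2 were higher and 1 was lower (37.5%, against 9.89% of all genes), with a median log2 fold change of 0.37. Cd72, a receptor for Sema4d best known from B cells, stood at 54, 47 and 38 normalized counts in NOD and at 231, 187 and 232 in B6, with no overlap. The log2 fold change was -2.21 ± 0.22 (limma adjusted p = 5.3e-05). The B cell genes Ms4a1, Blnk and Ebf1 were also lower in every NOD library, while Cd79a and Ighm were higher, and the part of B cells in the Cd72 difference was not tested. Itga1 and Itgb1, which encode the integrin that binds Sema7a, both rose. Itga1 stood at 119, 137 and 112 in NOD and 64, 61 and 27 in B6 (1.35 ± 0.32, adjusted p = 0.02). Omitting NOD library 2 or 18 ended that call (adjusted p = 0.058 and 0.061), as did a fit without the trend (0.08). L1cam, Nrcam, Ptk7, Flt1 and Erbb2 did not pass the test.

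Of 10 tested ligands, adaptors and proteases of neuropilins and semaphorins 1 was higher and 1 lower (20%, against 9.89% of all genes, and a median log2 fold change of -0.09). Hgf, a growth factor that binds neuropilins, stood at 55, 9 and 18 normalized counts in NOD and at 109, 154 and 116 in B6. Its groups were far apart although NOD library 2 stood well above the other NOD libraries (log2 fold change -2.52 ± 0.51, limma adjusted p = 0.0077), and the call was lost without the trend (0.068). Adam17, a protease that sheds many membrane proteins, rose from 2169 ± 144 in B6 to 3297 ± 285 in NOD (SD, n = 3 each, adjusted p = 0.0035). Vegfa (80, 56 and 69 in NOD, 75, 61 and 80 in B6), Tgfb1 and Gipc1, whose protein binds the tail of Nrp1, did not pass the test.

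Effectors downstream of plexins changed in 4 of 35 tested genes (11.4%, near the 9.89% of all genes), with a median log2 fold change of 0.01. Rras2, a Ras-family GTPase, rose from 1323, 1306 and 1617 normalized counts in B6 to 2705, 2775 and 2986 in NOD (a 2-fold change, limma adjusted p = 0.00016). Rhod, a small GTPase (1.09 ± 0.25, adjusted p = 0.015), and Mical2, an actin-oxidizing enzyme of the MICAL family (1.19 ± 0.26, adjusted p = 0.013), also rose at lower levels. Both calls were lost without NOD library 18 (adjusted p = 0.07 and 0.062), that of Rhod also without B6 library 4 (0.062) and that of Mical2 without NOD library 2 (0.059). Pak1, a kinase activated by Rac and Cdc42, fell from 420, 578 and 651 in B6 to 204, 284 and 238 in NOD (-1.17 ± 0.19, adjusted p = 0.0018). The exchange factor genes Arhgef11 and Arhgef12, which bind B-class plexins, and Farp1 and Farp2 did not pass the test.

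Of 26 tested effectors of Eph receptors and ephrins 1 was higher and 3 were lower (15.4%, against 9.89% of all genes, and a median log2 fold change of -0.01). Inppl1, which encodes the lipid phosphatase SHIP2, rose from 410, 388 and 251 normalized counts in B6 to 793, 943 and 731 in NOD (1.26 ± 0.19, limma adjusted p = 0.0011). Acp1, a low-weight tyrosine phosphatase, fell from 523, 622 and 751 to 367, 334 and 274 (-0.95 ± 0.17, adjusted p = 0.0032). Chn2, a Rac-inactivating chimaerin, stood at 36, 26 and 41 in NOD and at 123, 103 and 70 in B6 (-1.48 ± 0.30, adjusted p = 0.0074), a call lost without B6 library 4 (0.053). Stat3, a transcription factor with many inputs besides ephrin-B, fell from 25362, 24676 and 24187 in B6 to 16647, 17847 and 14069 in NOD (adjusted p = 0.0052, and 0.051 without the trend). Vav1, Nck1 and Itsn1 did not pass the test.

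The netrin, Slit, Robo, Unc5, Rgm, Flrt and related genes served as other guidance families, and 8 of 22 in the table were expressed. A single gene of these, Ntn4, was called (12.5%, against 9.89% of all genes). Ntn4 encodes netrin-4, a secreted laminin-related protein, and lies on chromosome 10 (93640681 to 93747207, mm10). It stood at 469, 529 and 626 normalized counts in NOD and at 1, 3 and 3 in B6, a near absence in every B6 library. Like Ephb2, it passed the filter through its NOD libraries alone. From estimated reads, 1769 in NOD against 7 in B6, the ratio was 235, with an exact 95% interval of 114 to 585 for counting error only. The limma log2 fold change of 7.41 (adjusted p = 1.3e-07) depends on the pseudocount, and the call held in all 12 other fits. Netrin receptor genes were low, with Neo1 at 85, 72 and 75 in NOD and 49, 86 and 58 in B6 and Unc5b at 11 to 36, and neither passed the test. Robo2 and Slit3 lay at 0 in every library.

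**Figure D4:**
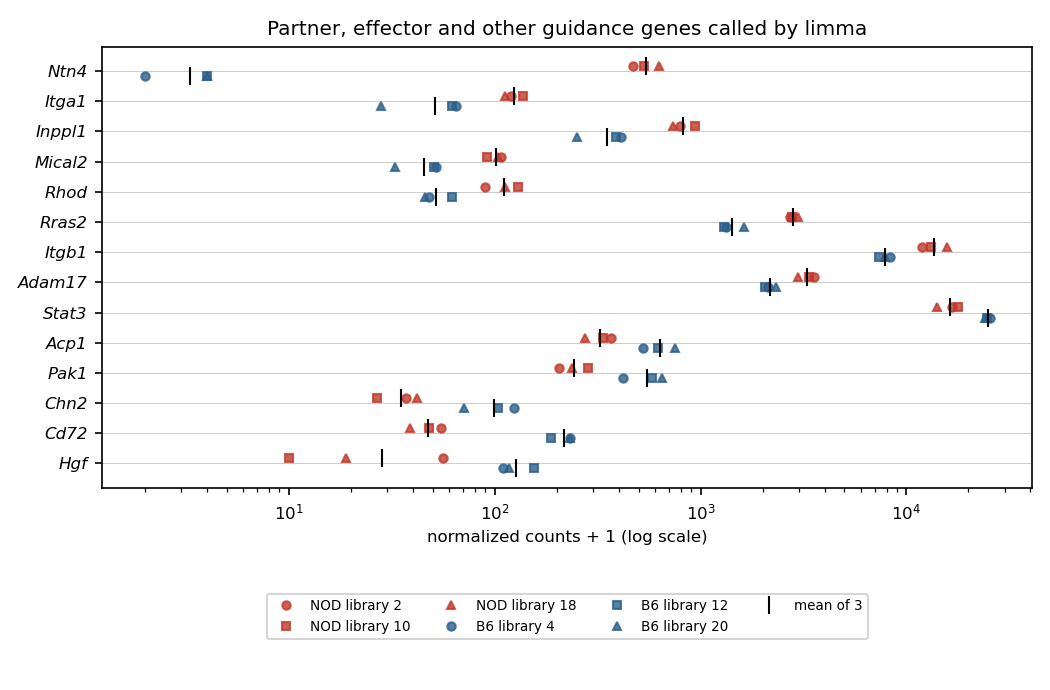
Normalized counts plus 1 (log axis) in each library for the 14 partner, effector and other guidance genes called by limma, ordered by log2 fold change, with a bar at each strain's mean. All 3 NOD libraries lie to one side of all 3 B6 libraries for each gene shown, and Ntn4 has the widest gap (469 to 626 in NOD, 1 to 3 in B6).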

How the data were processed

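Trimmomatic, STAR and DESeq2 with the mm10 build were used by the authors, per the submitters' processing notes. Not given in the sources used here are the counter, the annotation and whether strand was used, so opposite-strand overlaps cannot be resolved. The deposited table holds scores, which are counts divided by a size factor and rounded, per the file headers, and the authors' DESeq2 log2 fold change, its p-value and its adjusted p-value. Columns were matched to strain by name and carry no replicate number of the labels.

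Genes that reached 10 normalized counts in 3 or more libraries (2 when a library was left out) were fitted with limma 3.58.1 in R 4.3.3 on log2(value + 1) with a variance trend and no term besides strain. On this scale the fold change of low genes depends on the pseudocount. P-values are two-sided and adjusted by Benjamini-Hochberg over all 16442 genes, and the fit was tested on simulated data. Replicates of a strain differed by more than sampling noise (chi-square per gene of 14.5 at the least). Alternatives were a pseudocount of 5, no filter, a mean of at least 50, recomputed size factors, quantile normalization, no trend and each library left out. Depth was estimated from the gaps that rounding left, and floors are 3 reads. Of values up to 50, between 59.6% and 100% per library go back to a single whole read count, so no count test was run. Coordinates and exon lengths come from GENCODE M21 (all 52 members matched) and promoters from RefSeq (46 matched). The members and lists were chosen with earlier results of these data known. The members named with values for each library are those called, those whose groups do not overlap and the highest of each family, together with further members chosen after their values were seen. From each list, up to 4 higher and 4 lower called genes are named, and list genes that were not called were chosen after their values were seen.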

Additional observations from a re-analysis of the deposited data

How the results depend on the processing

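No paired analysis was possible because the columns carry no replicate number of the labels, and the numbers they do carry are not shared between strains. Of the 26 members, the direction held in every fit for 15. With a library left out it changed for 11 that were not called, whose log2 fold changes then ran from -0.17 to 0.44 (Efna4), -0.12 to 0.55 (Efnb1), -0.28 to 0.09 (Epha1), -1.94 to 0.065 (Epha2), -0.40 to 0.38 (Nrp2), -0.10 to 0.24 (Plxna1), -0.055 to 0.26 (Plxnb1), -0.072 to 0.25 (Sema4a), -0.10 to 0.11 (Sema4d), -0.27 to 0.11 (Sema4g) and -0.43 to 0.34 (Sema6d).

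The number of members called higher with limma was 0 without the variance trend (1 at an unadjusted p below 0.05) and 0 with a mean of at least 50 (1 unadjusted), a filter that Ephb2 does not reach. With a library left out it ran from 0 to 1, and the number lower from 1 to 3. Over all genes, 490 to 781 were higher and 569 to 1011 lower with a library left out, the lowest counts coming without NOD library 18 and without B6 library 4. In the partner and effector lists 5 to 8 were higher. Fewer libraries reduce what a fit can call, and the cause of each change was not tested. Low levels limit Ephb2, Epha2, Efna4 and Efnb3 most, where a few reads move the value.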

Other observations

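The authors' deposited table also gives a mean of normalized counts per gene, which is not the mean of the 6 libraries shown here and so does not rest on them alone. For 5 of the 26 expressed members it lay above the highest of the 6 libraries (19.2%, against 18.5% of all genes tested). Nrp2 had a deposited mean of 842.1 against 320.2 over the 6 libraries, Ephb6 897.7 against 384.2, Sema4a 165.3 against 57.17, Sema6d 200.1 against 103 and Sema6c 72.3 against 60.5. It lay below the lowest of the 6 for Sema4b (1189 against 2184) and Plxnc1 (695.2 against 864.2), or 7.69% of the members against 15.6% of all genes tested.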
